A study of Homo sapiens with 4 samples.

Results

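The fatty acid oxidation genes described here are 31 genes for the activation of fatty acids, their entry into mitochondria, their stepwise oxidation there and in peroxisomes, and the regulation of the pathway. They were taken by gene symbol from a list and not by any measured value. All 31 are among the 20372 genes of the count table, and all 31 had enough reads to be tested, as did 12876 genes in all. RNA was sequenced from TPC1 cells, an established human papillary thyroid carcinoma line with a CCDC6-RET rearrangement. The methods give DMEM with 10% FBS for the Western blots of this line and name no medium for the sequenced cells. The cells were exposed to BLU6864, a selective inhibitor of the RET kinase, for 6 h in 2 libraries and for 24 h in 2 libraries. The labels give the dose as 100 µM and the methods as 100 nM. All 4 libraries come from this single cell line with the inhibitor present and no vehicle library was analysed here, so the effect of BLU6864 cannot be told apart from that of time in culture. The labels mark both 24 h libraries, and neither 6 h library, as a re-analysis, and this mark and the time point cannot be told apart either.

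Total counts per library lay between 23917056 and 27457040. Across genes, Spearman correlations between libraries of the same time were 0.998 or more, and those of a 6 h with a 24 h library 0.9406 or less. Of the thyroid follicular markers, PAX8, a transcription factor of the thyroid lineage, had 19124 to 22978 counts per library. TG had 98 and 111 counts at 24 h and 186 and 245 at 6 h. FOXE1 had 462 and 556 at 24 h and 273 and 279 at 6 h. Of the 5 epithelial markers, the keratin KRT19 had 37 and 40 at 24 h and 100 and 125 at 6 h. KRT18 went the other way, with 1185 and 1155 at 24 h and 856 and 900 at 6 h. KRT8 had 1720 and 1811 at 24 h and 1724 and 1807 at 6 h. EPCAM and CDH1 had at most 11 counts in any library. TG, FOXE1, KRT19 and KRT18 thus moved between the time points in different directions, and the part of these lineage markers in the results was not tested. SLC5A5 and DUOX2 had at most 7 counts, and TSHR and NKX2-1 had no count in any library. Adipocytes and hepatocytes are cells with an active fatty acid metabolism. Of 5 adipocyte markers, FABP4, ADIPOQ, CIDEC and LEP had at most 3 counts in any library and PLIN1 had 9 to 36, and the summed counts of the list were 32 to 37 at 24 h and 12 to 18 at 6 h. The 5 hepatocyte markers summed to 21 to 27 counts at 24 h and 3 to 5 at 6 h, and the difference lay in FGB, with 20 and 20 counts at 24 h and 0 and 1 at 6 h, whereas ALB, APOB and TTR had at most 2 and APOA1 at most 5. All 4 libraries are of the single TPC1 line. In bulk RNA, fewer cells with a marker and less of its RNA per cell cannot be told apart.

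A fatty acid is first joined to coenzyme A by an acyl-CoA synthetase, which commits it to oxidation, to storage or to membrane lipid. Long chains then cross into the mitochondrion as carnitine esters. There the chain is shortened from its carboxyl end in a repeated cycle of dehydrogenation, hydration, a further dehydrogenation and thiolysis, and each turn releases acetyl-CoA and passes electrons to the respiratory chain. Peroxisomes shorten very long and branched chains with their own enzymes. Nuclear receptors of the PPAR family bind fatty acids and their derivatives and control many of these genes. In thyroid cells, as in most epithelia, the pathway is one of several sources of mitochondrial fuel.

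Between 6 h and 24 h of BLU6864, the members moved in both directions, and the large changes lay in fatty acid activation. ACSL1 and ACSL4 rose 2.66-fold each, whereas ACSL3 was 2.03-fold lower at 24 h. The lipid receptors PPARG and PPARA and the peroxisomal enzyme EHHADH rose by 1.53 to 1.73-fold, and the electron carriers ETFA and ETFDH fell. The enzymes of carnitine transport and of the mitochondrial cycle changed by less than 1.5-fold or did not pass the test.

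The cutoffs of the study's methods, applied in both directions, were a log2 fold change beyond 0.5 or -0.5 and P under 0.01 before adjustment. Of the 31 members, 5 passed them as higher at 24 h and 3 as lower. That is 16.1% and 9.68% of the members, against 17.4% higher and 17.7% lower among all genes tested. With an adjusted P under 0.05, here called higher or lower, 9 members were higher, 8 were lower and 14 were not called, or 29.0% and 25.8% against 33.0% and 32.6% of all genes tested. Each of these 4 shares lies below that of all genes. The adjusted P counts by role and by related list below have the same background, 33.0% higher and 32.6% lower among all genes. Upper quartile scaling gave 12 higher and 7 lower in place of 9 and 8. The 24 h pair of libraries lay above the 6 h pair for 14 members and below them for 11, which is 45.2% and 35.5%, against 41.0% and 40.8% of all genes tested. The median log2 fold change was 0.055 for the members and 0.0029 for all genes. The median of its absolute value was 0.27 for the members and 0.37 for all genes, with median standard errors of 0.0765 and 0.086 and median normalized counts of 1493 and 795.

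**Figure D1:**
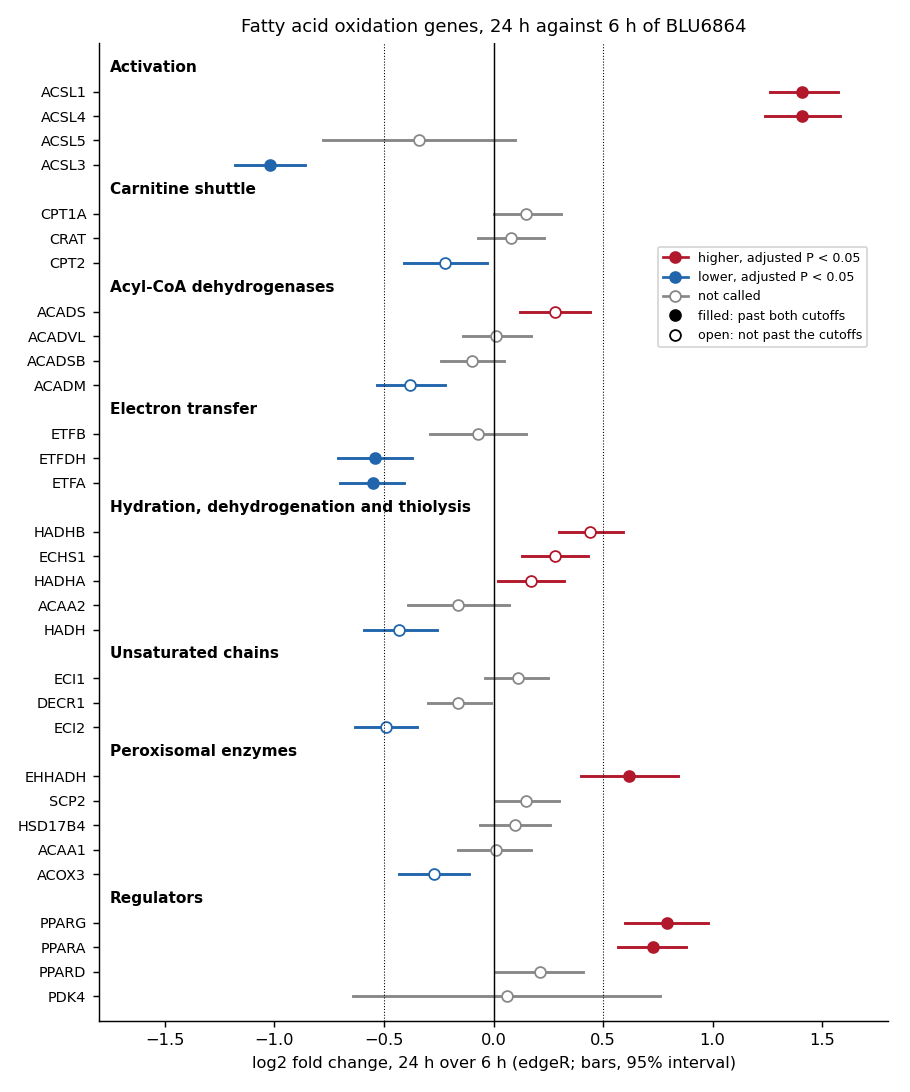
Log2 fold change of each of the 31 fatty acid oxidation genes, 24 h over 6 h, grouped by role, with bars for the 95% interval of the edgeR fit and dotted lines at -0.5 and 0.5. ACSL1 and ACSL4 at 1.41 and ACSL3 at -1.02 lie farthest from 0, and most of the mitochondrial enzymes lie between the dotted lines.

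**Figure D2:**
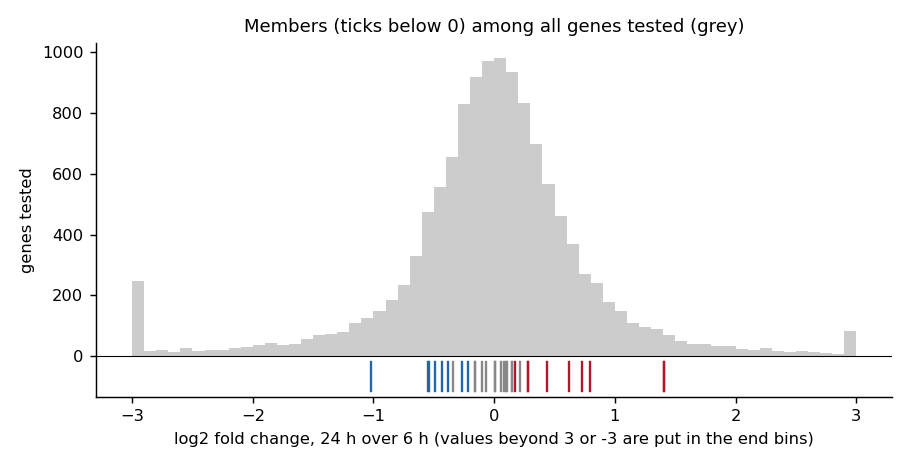
Histogram of the log2 fold changes of the 12876 genes tested (grey, number of genes per bin), with 1 tick below the axis for each member, red for higher, blue for lower and grey for not called. The members' ticks span -1.02 to 1.41 and lie on both sides of 0.

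The long-chain acyl-CoA synthetases are described first. ACSL4, which prefers arachidonate and other polyunsaturated chains and lies at chrX:108867473-108976632 in the hg19 build, had normalized counts of 24986 and 23935 at 24 h and 9828 and 8599 at 6 h. Both 24 h libraries were far above both 6 h libraries. The means were 24461 ± 743 at 24 h and 9213 ± 869 at 6 h (SD, n = 2 each), and the log2 fold change was 1.41 (SE 0.083, adjusted P = 3.67e-14). ACSL1 (chr4:185676749-185747972), the form most often tied to oxidation and to triglyceride synthesis, had 5560 and 5479 normalized counts at 24 h and 2175 and 1971 at 6 h. Its libraries were separated in the same way. Its log2 fold change was also 1.41 (SE 0.0741, adjusted P = 3e-15).

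ACSL3 (chr2:223725652-223809357), which resides on the endoplasmic reticulum and on nascent lipid droplets, moved the opposite way. It had 6198 and 6206 normalized counts at 24 h and 13416 and 11787 at 6 h, so both 24 h libraries lay below both 6 h libraries. The log2 fold change was -1.02 (SE 0.0784, adjusted P = 8.9e-12). ACSL5, a synthetase of the mitochondrial outer membrane and endoplasmic reticulum, was scarcely read, with normalized counts of 50.8 and 58.4 at 24 h and 81.0 and 58.5 at 6 h. The higher 24 h library and the lower 6 h library were nearly equal, and the log2 fold change of -0.34 was not called (95% interval -0.78 to 0.10, adjusted P = 0.167).

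To compare the synthetases with each other, normalized counts were divided by the length of each gene's longest protein-coding transcript. On this scale ACSL3 was the most abundant of the 4 genes at 6 h, with 49.3% of their summed level in each library, and ACSL4 had 38.9% and 38.7%. At 24 h ACSL4 had 65.5% and 64.7%, and ACSL3 had 15.1% and 15.6%. ACSL1 had 11.3% and 11.6% at 6 h and 19.1% and 19.4% at 24 h, and ACSL5 stayed below 0.5%. The replicates differed by less than 1 percentage point in each of these shares. The ratio of ACSL4 to ACSL3 per kilobase was 0.788 and 0.785 at 6 h and 4.34 and 4.15 at 24 h. The summed level of the 4 genes per kilobase was 4583 ± 416 at 6 h and 7246 ± 155 at 24 h (SD, n = 2 each). In sum the family was higher in both 24 h libraries, with another leading member.

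**Figure D3:**
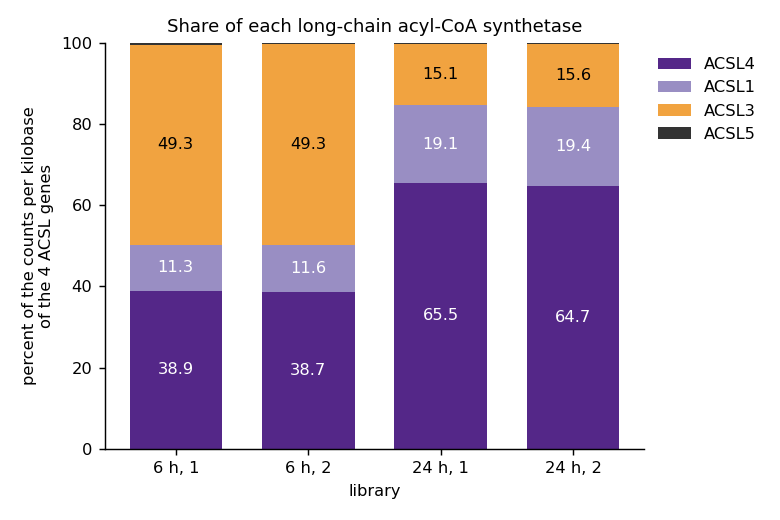
Percent of the summed counts per kilobase of the 4 long-chain acyl-CoA synthetase genes taken by each gene, in each of the 4 libraries. ACSL3 takes 49.3% of both 6 h bars and at most 15.6% of the 24 h bars, and ACSL4 takes at least 64.7% of the 24 h bars.

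The promoters of ACSL4 and ACSL3 are shown because these genes exchanged places as the leading synthetase. That of HADHB is shown because it lies between the starts of HADHA and HADHB, which encode the subunits of a single enzyme. Both genes were called higher at 24 h, but HADHA lost its call in 6 of 10 other settings. Each sequence is the 250 bases before the RefSeq transcription start in GRCh38.p14, written 5′ to 3′ on the gene's strand, and capitals mark matches to the CCAAT box (CCAAT) or the GC box (GGGCGG) on either strand. The ACSL4 window is chrX:109733258-109733507 on the minus strand, the ACSL3 window is chr2:222860786-222861035 on the plus strand, and the HADHB window is chr2:26244689-26244938 on the plus strand.
ACSL4: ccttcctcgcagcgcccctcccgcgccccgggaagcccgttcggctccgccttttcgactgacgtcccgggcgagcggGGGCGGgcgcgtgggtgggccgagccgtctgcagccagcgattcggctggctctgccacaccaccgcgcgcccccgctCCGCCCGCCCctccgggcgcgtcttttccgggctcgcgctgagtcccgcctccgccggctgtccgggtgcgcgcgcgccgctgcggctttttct
ACSL3: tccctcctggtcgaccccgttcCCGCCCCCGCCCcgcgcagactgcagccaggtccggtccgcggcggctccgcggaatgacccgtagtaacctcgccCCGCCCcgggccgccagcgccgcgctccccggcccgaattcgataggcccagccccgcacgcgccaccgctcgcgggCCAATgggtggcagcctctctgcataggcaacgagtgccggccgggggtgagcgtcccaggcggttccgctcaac
HADHB: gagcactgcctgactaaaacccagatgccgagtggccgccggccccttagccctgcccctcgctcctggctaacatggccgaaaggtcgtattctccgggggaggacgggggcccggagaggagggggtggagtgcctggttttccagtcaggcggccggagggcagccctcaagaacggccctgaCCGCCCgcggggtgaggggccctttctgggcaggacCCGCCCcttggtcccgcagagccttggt
The windows hold 77.2%, 75.2% and 69.2% G and C. ACSL4 has 3 GC box matches, of which 2 overlap, ACSL3 has 3 GC box matches and a CCAAT box at -75 to -71 from the start, and HADHB has 2 GC box matches, at -64 to -59 and at -28 to -23. The starts of HADHA, at position 26244632 on the minus strand, and of HADHB, at 26244939 on the plus strand, are separated by 306 bases.

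RefSeq windows were found for 26 members, in 43 windows, and 13 motifs were searched in them on both strands. The GC box was matched in 27 of the 43 windows (62.8%), from 22 members, and in 42.6% of 35116 windows of all genes. The CCAAT box was matched in 9 of the 43 windows (20.9%), from 9 members, and in 32.0% of all windows. The TATA box (TATAAA) was matched in 3 member windows, of ACADVL and PPARG (6.98%, against 10.7% of all windows). The direct repeat bound by PPAR with its partner RXR, searched as AGGTCANAGGTCA, was matched in no member window and in 0.0171% of all windows. AGGTCA, which it contains, was matched in 4 member windows, of ACSL5 and PPARG (9.3%, against 12.1% of all windows). An AP-1 site (TGACTCA) was matched in 3 member windows, of ACADVL, ACSL1 and SCP2 (6.98%, against 4.2% of all windows). In 1 member window each (2.33%), 3 further sites were matched. They were the palindromic NRF1 site in PPARA (1.03% of all windows), a sterol response element (TCACNCCAC) in ACSL1 (0.883%) and an ETS site (CCGGAAGT) in CPT2 (3.42%). No member window held the E-box CACGTG (6.34% of all windows), the TFEB site TCACGTGA that contains it (0.854%), the E2F site TTTCGCGC (0.439%) or the ERR site TCAAGGTCA, which contains AGGTCA (0.319%). These matches describe letters in a window and were not tested against the expression changes.

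Of the 3 carnitine shuttle genes, 1 was lower and 2 were not called. CPT1A, the malonyl-CoA-sensitive enzyme that makes acylcarnitines at the outer membrane and limits the rate of entry, had 1060 and 1048 normalized counts at 24 h and 945 and 952 at 6 h. The 24 h libraries were the higher, but the log2 fold change of 0.15 was not called (adjusted P = 0.0814). CPT2, which returns the acyl group to coenzyme A on the matrix side, fell, with 593 and 536 normalized counts at 24 h and 703 and 613 at 6 h and a log2 fold change of -0.22 (SE 0.0927, adjusted P = 0.0405). This call was lost in 5 of 10 other settings, including DESeq2, and the value was -0.12 without the first 6 h library and -0.14 without the second 24 h library. CRAT, which handles short acyl groups, had a log2 fold change of 0.08 (95% interval -0.07 to 0.23) and overlapping libraries.

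The acyl-CoA dehydrogenases carry out the first step of each turn, and of 4 members 1 rose and 1 fell. ACADVL, for the longest chains, had 10497 and 10419 normalized counts at 24 h and 10403 and 10310 at 6 h. These values were nearly equal, and the log2 fold change was 0.01 (95% interval -0.14 to 0.17). ACADM, for medium chains, fell by 0.38 on the log2 scale (adjusted P = 9.83e-05). Its normalized counts were 1727 and 1571 at 24 h and 2268 and 2015 at 6 h. It shares 1382 bases of the table with RABGGTB, which had a log2 fold change of -0.53, and the part of this overlap was not tested. ACADS, for short chains, rose by 0.28 (adjusted P = 0.00265), from 820 and 869 normalized counts at 6 h to 1016 and 1041 at 24 h. ACADSB, which acts on short branched chains from isoleucine, had a log2 fold change of -0.10 and was not called.

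Electrons from these dehydrogenases pass to the electron transfer flavoprotein, a dimer of the ETFA and ETFB products, and from it to the coenzyme Q pool through the ETFDH product. ETFA (chr15:76507696-76603813) had 3745 and 3766 normalized counts at 24 h and 5340 and 5664 at 6 h, and ETFDH (chr4:159593277-159630775) had 674 and 621 at 24 h and 970 and 915 at 6 h. For both genes each 24 h library lay below each 6 h library. ETFA fell by 0.55 on the log2 scale (SE 0.071, adjusted P = 1.62e-07), and ETFDH fell by 0.54 (SE 0.0836, adjusted P = 2.85e-06). Without the second 24 h library the value for ETFDH was -0.48, which is short of the cutoff of -0.5. ETFB had 403 and 365 normalized counts at 24 h and 440 and 367 at 6 h, so its groups overlapped, and its log2 fold change was -0.07 (95% interval -0.29 to 0.15). The ratio of ETFA to ETFB, per kilobase of the longest transcripts, was 12.3 and 13.7 at 24 h and 16.1 and 20.5 at 6 h. Its size depends on the transcript taken, since the longest ETFB transcript has 3551 bases and the canonical transcript 872, and with canonical lengths it was 3.54 and 3.93 at 24 h and 4.62 and 5.87 at 6 h. ETFB shares 16046 bases of the table, 75.5% of its span, with CTD-2616J11.11, and the part of this overlap in its counts and in the ratio was not tested. ETFDH shares 131 bases of the table with C4orf46, which had a log2 fold change of -1.88, and 490 with PPID, at -0.57. The part of these overlaps in the counts of ETFDH was not tested.

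For the later steps of the cycle, 3 of 5 members rose and 1 fell. HADHB, the thiolase subunit of the mitochondrial trifunctional protein, had 6555 and 6554 normalized counts at 24 h and 4922 and 4713 at 6 h. The 24 h values nearly coincided and exceeded both 6 h values, and the log2 fold change was 0.44 (SE 0.0711, adjusted P = 4.8e-06). HADHA, the subunit with the hydratase and dehydrogenase activities, had 5411 and 5419 at 24 h and 5086 and 4573 at 6 h. Its libraries were separated too, but the log2 fold change of 0.17 (SE 0.0731, adjusted P = 0.0494) lost its call in 6 of 10 other settings, including DESeq2, and was 0.087 without the second 6 h library. The level of HADHB relative to HADHA per kilobase was 1.69 and 1.68 at 24 h and 1.35 and 1.43 at 6 h. In the hg19 table the genes share 1557 bases at their 5′ ends, so reads there could have been counted for either gene.

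ECHS1, the hydratase for short chains, rose by 0.28 on the log2 scale (adjusted P = 0.00123), with 5694 and 6130 normalized counts at 24 h and 4792 and 4925 at 6 h. HADH, the dehydrogenase for medium and short chains, fell by 0.43 (adjusted P = 4.07e-05), with 737 and 766 normalized counts at 24 h and 1028 and 992 at 6 h. Both genes had separated groups. ACAA2, the mitochondrial thiolase, had 299 and 343 at 24 h and 326 and 389 at 6 h and was not called (log2 fold change -0.16, adjusted P = 0.214).

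Unsaturated chains need auxiliary enzymes that move or remove a double bond. ECI2, an enoyl-CoA isomerase found in mitochondria and peroxisomes, had 1329 and 1377 normalized counts at 24 h and 1899 and 1902 at 6 h. The groups were well separated, and ECI2 fell by 0.49 (adjusted P = 9.11e-07), just inside the cutoff of 0.5, which it passed with library size scaling alone and without the second 24 h library. The mitochondrial isomerase ECI1 had a log2 fold change of 0.11 (adjusted P = 0.184) and the reductase DECR1 one of -0.16 (adjusted P = 0.0589). Over the 15 members of the mitochondrial cycle, its electron carriers and these auxiliary enzymes, 4 were higher, 5 lower and 6 were not called. Among all genes tested 33.0% were higher and 32.6% lower. The median log2 fold change was -0.096 for the 15 members and 0.0029 for all genes.

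**Figure D4:**
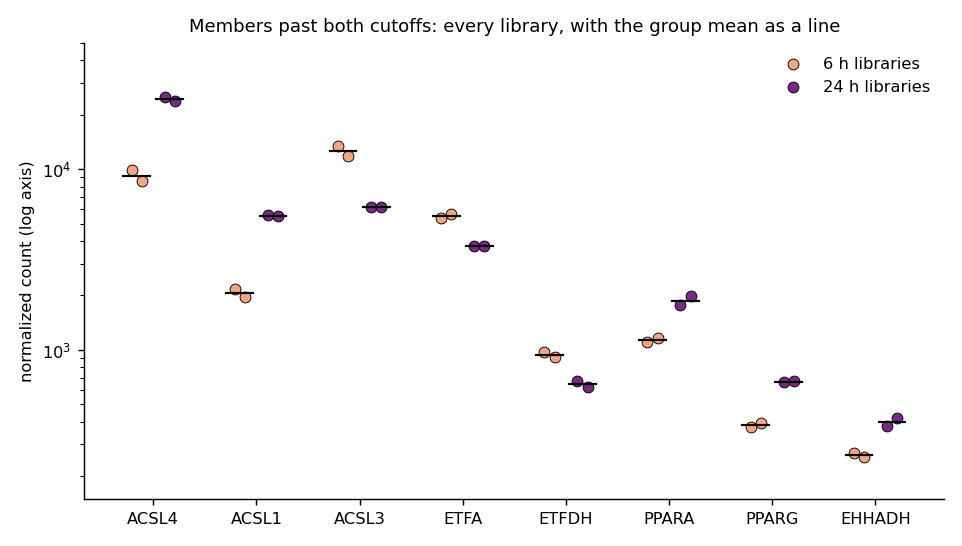
Normalized counts (log axis) of the 8 members past both cutoffs, with 1 point per library, 6 h in orange and 24 h in purple, and the mean of each time point as a line. In each of the 8 genes the 6 h points and the 24 h points do not overlap, with ACSL3, ETFA and ETFDH lower at 24 h and the other 5 genes higher.

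Of the 5 peroxisomal enzymes, EHHADH (chr3:184908412-184999778), a bifunctional hydratase and dehydrogenase also used for dicarboxylic acids, rose. It had 380 and 422 normalized counts at 24 h and 269 and 255 at 6 h. Each 24 h library was above each 6 h library, and the log2 fold change was 0.62 (SE 0.107, adjusted P = 1.53e-05). ACOX3, an oxidase for branched chains, fell by 0.27 on the log2 scale (adjusted P = 0.0046), with 740 and 757 normalized counts at 24 h and 904 and 902 at 6 h. HSD17B4, the other bifunctional enzyme, SCP2, a thiolase and sterol carrier, and ACAA1, the straight-chain thiolase, were not called, with log2 fold changes of 0.10, 0.15 and 0.01. Their libraries overlapped for HSD17B4 and ACAA1. For SCP2 the 24 h libraries had 7844 and 7862 normalized counts, above the 7176 and 6932 at 6 h (adjusted P = 0.0612).

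Among the regulators, PPARG (chr3:12328867-12475855), the receptor best known for adipocyte differentiation, had 663 and 670 normalized counts at 24 h and 376 and 393 at 6 h. PPARA (chr22:46546424-46639653), the receptor that drives oxidation genes in liver, had 1767 and 1979 at 24 h and 1103 and 1161 at 6 h. Both receptors were higher in both 24 h libraries. PPARG rose by 0.79 on the log2 scale (SE 0.091, adjusted P = 2.23e-08) and PPARA by 0.73 (SE 0.0751, adjusted P = 3.21e-09). Of the 5 adipocyte markers, PLIN1 had raw counts of 36 and 31 at 24 h and 17 and 9 at 6 h, and ADIPOQ, LEP, CIDEC and FABP4 had at most 3 in any library. The libraries are of the single TPC1 line, and the relation of these marker counts to the rise of PPARG was not tested. PPARD, the most widely expressed receptor of the family, had 438 and 465 normalized counts at 24 h and 408 and 376 at 6 h, and its log2 fold change of 0.21 was not called (adjusted P = 0.065). PDK4, a kinase that blocks pyruvate entry and a well known PPAR target, was close to the limit of reading, with raw counts of 17 and 27 at 24 h and 21 and 20 at 6 h. The groups overlapped, and at this depth the 95% interval of its log2 fold change, -0.64 to 0.76, leaves a wide range of changes undetectable.

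Ordered by level per kilobase of the longest transcript, ACADVL led the 31 members at 6 h with 4650, before ECHS1 with 3805, ACSL3 with 2260 and HADHB with 2249, of which the last pair lies within the spread of its libraries. At 24 h the leading members were ACSL4 with 4720, ACADVL with 4696 and ECHS1 with 4629, which lie within the spread of the libraries of each other. ACSL4 was 8 in the order at 6 h, and ACSL3 moved from 3 to 11. ACSL5 and PDK4 were the lowest members at both time points, with 16.1 and 6.0 per kilobase at 24 h. The order depends on the transcript length used. With canonical transcripts SCP2, HADHB and ETFA came before ACSL3 at 6 h, which was then 6 in the order and 11 at 24 h, whereas ACSL4 was again 8 at 6 h and 1 at 24 h. The longest and canonical transcripts differ most for ETFB and PPARG.

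The wider pathway was followed in 10 lists of 97 related genes, of which 81 were tested. With an adjusted P under 0.05, 29 were higher, 27 lower and 25 not called, or 35.8% and 33.3% against the 33.0% and 32.6% of all genes. Their median log2 fold change was 0.06. The members and their related genes thus had medians close to 0.

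The 5 tested genes of the list of other acyl-CoA synthetases, which holds short-chain, medium-chain and ACSF members (ACSF2, ACSF3, ACSM3, ACSS1 and ACSS2), were higher by 0.50 to 1.70 on the log2 scale, and ACSM3, a medium-chain synthetase, had 233 and 210 normalized counts at 24 h and 69.1 and 67.2 at 6 h. Of 8 further mitochondrial dehydrogenases and auxiliary enzymes, 6 were higher and none lower, and the reductase DECR2, which is peroxisomal, had the largest change at 0.98 (adjusted P = 4.2e-09). Of 5 genes for carnitine uptake and transfer, none was higher and 2 were lower, among them the transporter SLC22A4 at -0.99 (adjusted P = 3.82e-06). The transporter SLC22A5 and the carrier SLC25A20 were not called, at 0.20 and 0.09 (adjusted P = 0.0979 and 0.366). Of 10 peroxisomal genes, 4 were higher and 3 lower, and the branched-chain oxidase ACOX2 had 36.9 and 15.6 normalized counts at 24 h and 119 and 143 at 6 h (log2 fold change -2.33, SE 0.244, adjusted P = 4.29e-09).

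Of 13 genes for uptake, binding and thioester hydrolysis, 3 were higher and 7 lower, and SLC27A2, a transporter and very long-chain synthetase, had raw counts of only 15 and 18 at 24 h and 2 and 4 at 6 h (log2 fold change 2.37, SE 0.556, adjusted P = 5.64e-04). The SLC27A family, whose products also act as acyl-CoA synthetases, was counted in this list, and SLC27A1, SLC27A3 and SLC27A4 fell by 0.37, 0.47 and 0.85 on the log2 scale (adjusted P = 1.81e-04, 0.0321 and 4.69e-11). Of 7 lipid droplet lipolysis genes, 2 were higher and 4 lower. ABHD5, the activator of the first lipase, fell by 1.29 on the log2 scale (adjusted P = 1.16e-14). LIPE, the hormone-sensitive lipase, fell by 1.04 (adjusted P = 6.84e-06), and PLIN3 and LIPA fell by 0.65 and 0.64 (adjusted P = 2.14e-08 and 1.76e-08). PNPLA2, the first lipase itself, rose by 0.41 (adjusted P = 1.34e-05) and MGLL by 0.48 (adjusted P = 2.84e-06). G0S2 was not called.

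Of 11 further regulators, 3 were higher and 4 lower, and the coactivator PPARGC1B had 69.7 and 83.7 normalized counts at 24 h and 15.1 and 24.0 at 6 h (log2 fold change 1.95, adjusted P = 3.42e-07). Of 5 tested PPAR target genes, 2 were higher and 1 lower. The lipid droplet protein PLIN2 fell by 0.87 (adjusted P = 8.9e-10), from 41775 and 37747 normalized counts at 6 h to 22326 and 21112 at 24 h, whereas ANGPTL4, an inhibitor of lipoprotein lipase, rose by 0.66 (adjusted P = 0.00164). Of 9 pyruvate entry genes, 1 was higher and 4 lower, led by the kinase PDK3 at -0.81 (adjusted P = 3.08e-07). Of 8 genes for odd-chain and ketone metabolism, 3 were higher and 2 lower, with PCCA, a subunit of propionyl-CoA carboxylase, at 1.04 (adjusted P = 9.63e-13) and OXCT1, which opens ketone use, at -1.37 (adjusted P = 1.58e-12).

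**Figure D5:**
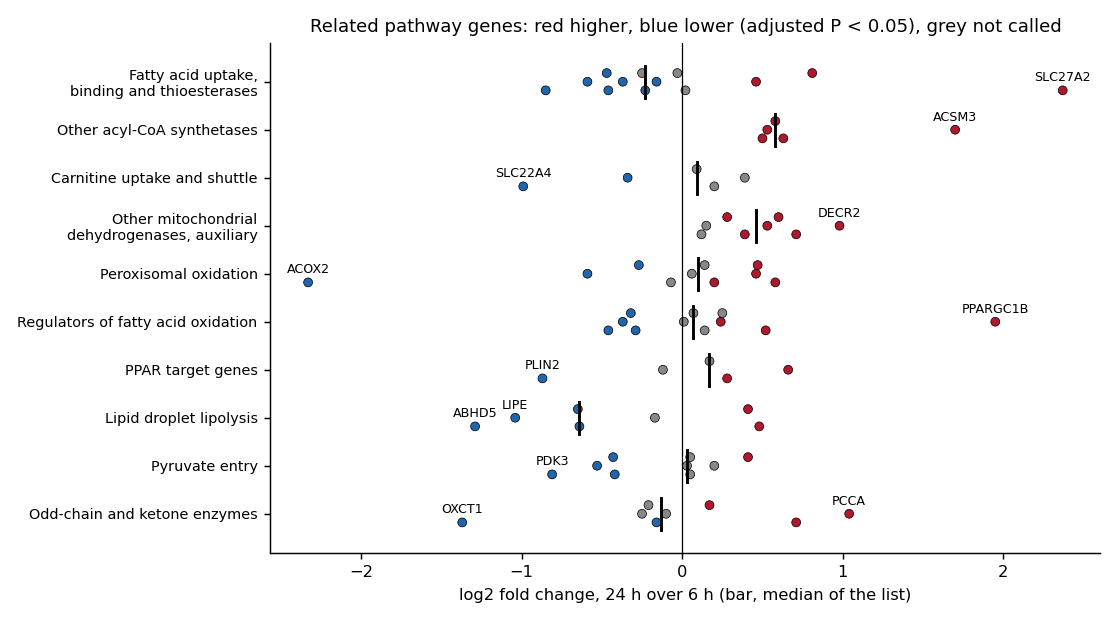
Log2 fold change, 24 h over 6 h, of the 81 related genes tested, by list, with a bar at each list's median, red for higher, blue for lower and grey for not called. The 5 genes of the list of other acyl-CoA synthetases lie above 0, with a median of 0.58. The 7 lipolysis genes, of which 2 were higher and 4 lower, have a median of -0.64.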

How the data were processed

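Libraries from TPC1 cells treated with BLU6864 were prepared with the TruSeq RNA kit, 2 for each time point. Per the submitters' processing notes, reads were aligned with STAR 2.3 to hg19. The methods name a stranded TruSeq kit and a later version of STAR, and which applies to these libraries was not settled. The counting program and its strand setting are not given in the sources used here, so counts of overlapping genes are uncertain, and 17 of the 31 members overlap another gene of the table. The shared part was largest for ECI2 (76.7% of its span), ETFB (75.5%), ACAA1 (61.3%) and ACAA2 (59.6%), and its effect was not tested. The labels describe single-end reads and the methods paired-end reads. The authors deposited raw counts for 20372 genes, which were tested here. The authors also deposited a normalized signal, the count over a library's size factor, with its mean, and a DESeq2 comparison (log2 fold change, standard error, Wald score, P and adjusted P). Neither was used.

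The raw counts entered edgeR 4.0.16 (R 4.3.3), with filterByExpr (12876 genes, 99.97% of the counts), TMM normalization and the quasi-likelihood F test with time as the only factor. P was adjusted by the Benjamini-Hochberg method over all genes tested, and intervals are at 95%. The biological coefficient of variation was 0.0521. Normalized counts are raw counts scaled to the mean effective library size. The labels do not say whether the 2 libraries of a time point came from separate cultures, so P values measure only the spread between these libraries, which exceeded sampling noise (chi-square per degree of freedom 8 at 24 h and 10.5 at 6 h). The procedure was tested on simulated counts in which far fewer genes changed than were called here. Its performance with changes as widespread as these was not tested.

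The members, the 10 related lists and the tests were chosen with earlier results of these data known. All members were described, those past the cutoffs with every library. Related genes were named if they passed the cutoffs with an absolute log2 fold change over 1 or changed most in their list. PNPLA2, MGLL, PLIN3, LIPA, G0S2, ANGPTL4, SLC22A5, SLC25A20, the other acyl-CoA synthetases and the SLC27A genes were named after their values were seen. The value of 1 marker gene is not reported here. Transcript lengths were from GENCODE v44, matched by identifier. Promoters were from RefSeq (GRCh38.p14), apart from the hg19 positions of the table. The 13 motifs were first searched in longer windows, which were then shortened to 250 bases, and the printed windows were chosen after the values were seen. Members without a match were ACAA1, CRAT, DECR1, EHHADH and ETFDH. Alternatives were DESeq2 1.42.0, library size alone, upper quartile scaling, other filters, the replicate number as a block, and each library left out. Figures used matplotlib 3.10.9 and Python 3.11.15.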

Additional observations from a re-analysis of the deposited data

How the results depend on the processing

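The members past both cutoffs numbered 5 higher and 3 lower in each of 10 alternative settings, except for 4 lower with library size alone, which added ECI2, and except that ECI2 took the place of ETFDH without the second 24 h library. With an adjusted P under 0.05 the counts were 8 to 12 higher and 7 to 9 lower. With each library left out in turn, where the lone library is assumed to vary like the other group, 5 were higher and 3 lower past the cutoffs, 8 to 10 were higher and 7 to 8 lower by adjusted P, and the related genes gave 24 to 28 higher and 23 to 24 lower. The replicate block gave 12 higher and 9 lower members by adjusted P, adding CPT1A, DECR1, SCP2 and PPARD. The labels do not say that the replicate numbers pair the libraries, so the numbers were not used in the reported fit. The deviations of same-numbered libraries had a correlation of 0.0757 over the genes tested. With 2 libraries per time this single value cannot exclude a shared batch. The members' median log2 fold change of 0.055 was 0.012 with library size alone and 0.004 to 0.085 with a library left out, against a replicate SD of 0.03. Values near 0 changed sign for ACADVL (-0.029) and ACAA1 (-0.034) with library size alone, and, with a library left out, for ACAA1 (-0.029 and -0.02, range to 0.06), ETFB (0.0097 and 0.063, range from -0.2), PDK4 (-0.29 and -0.07, range to 0.34) and HSD17B4 (-0.0042, range to 0.2). None of these 5 genes was called in the reported fit, and the cause was not tested. Of 310 values for single members, 280 kept direction and call, 10 gained the call, 11 lost it and 9 changed sign. The 119 values for the 12 related genes named by rule all kept direction and call, and SLC27A2 gave no value with at least 10 counts required in every library. With canonical transcript lengths, a choice made after seeing the data, the share of ACSL4 was 65.7% at 24 h and 39.9% at 6 h, in place of 65.1% and 38.8%. Depth limited PDK4 and ACSL5, which had under 100 normalized counts, with standard errors of 0.34 and 0.215.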
